A study of Mus musculus with 8 samples.

Results

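The genes described here encode the vacuolar proton pump (V-ATPase) and the ion channels and exchangers that work beside it on endosomes and lysosomes. They were measured in RAW264.7 cells, which are a line of macrophage character from the mouse and can also be driven towards osteoclasts. The cells had been cultured on polyetheretherketone (PEEK), a polymer of bone implants, with a nano/microstructured surface (structured, 4 libraries) or a smooth surface (smooth, 4 libraries). The labels name no treatment beyond the surface, and no culture time. The members are the table's genes whose symbol begins with Atp6v0, Atp6v1 or Atp6ap, except Atp6v0d2, together with Tcirg1, Clcn3 to Clcn7, Ostm1, Mcoln1, Tpcn1, Tpcn2 and Rnasek. This rule found 33 of the 26848 genes in the table: 9 genes of the V0 sector, 11 with an Atp6v1 symbol, 2 for accessory proteins, 9 for channels, exchangers and the exchanger partner Ostm1, and 2 V0 pseudogenes.

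The V-ATPase is a rotary pump: its V1 sector hydrolyses ATP in the cytosol, and the turning of its central stalk drives protons through the V0 sector in the membrane. Lysosomal acid activates the hydrolases with which macrophages digest what they take up, and in osteoclasts the same pump acidifies the bone surface. Chloride and proton exchangers of the CLC family carry counter-ions, while the TRPML and two-pore channels let calcium and sodium out of the lysosome.

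Counts were scaled to CPM, a gene's counts relative to the library total after TMM adjustment and compared with edgeR's quasi-likelihood test, structured minus smooth, with Benjamini-Hochberg adjustment over the 16006 genes that passed the filter on low counts. A gene is called where its adjusted p was under 0.05. The libraries held 64479829 to 73098735 deposited count units each. Correlations of log2 CPM between libraries were 0.990 to 0.995 within a surface and 0.989 to 0.993 between surfaces, so the whole transcriptomes were close. The labels call 3 of the 4 libraries of each surface biological repeats without naming separate cultures, so p-values measure the spread between these libraries, which may be technical. Macrophage markers (8 of 8 tested, none called by edgeR) summed to 6456.1 to 6604.4 CPM in structured libraries and 6114.6 to 6543.8 CPM in smooth libraries. Transcripts listed as markers of other cell types were also present, and which cells they came from was not tested. Neutrophil markers (12 listed, 5 tested, 5 called higher) summed to 14.8 to 55.2 CPM in structured libraries and 0.438 to 1.92 CPM in smooth libraries. Hepatocyte markers (15 tested, none called by edgeR) summed to 151.1 to 495.8 CPM in structured libraries and 64.2 to 350.6 CPM in smooth libraries. Skeletal muscle markers (12 listed, 11 tested, 3 called lower) summed to 15.2 to 21.6 CPM in structured libraries and 19.0 to 62.8 CPM in smooth libraries. Osteoclast markers (10 listed, 8 tested, 1 called higher, Car2) summed to 1068.4 to 1212.7 CPM in structured libraries and 1013.5 to 1055.7 CPM in smooth libraries. No marker in the table was at 0 in all libraries. The part of these transcripts in the results was not tested beyond a fit with the hepatocyte level as a covariate. In such bulk samples, fewer cells of a type and less RNA per cell cannot be told apart.

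Of the 33 members, 30 passed the filter. On the structured surface 4 of them fell, namely the V0 genes Atp6v0a1 and Atp6v0d1 and the channel and exchanger genes Tpcn1 and Clcn7, and none rose by edgeR. Over all tested genes, 2.75% were called lower and 1.01% called higher. At an unadjusted p under 0.05, 5 members were lower and 1 was higher. At that threshold 1696 of all 16006 tested genes were lower and 1303 higher. DESeq2 called the same 4 members lower and Atp6v1f higher, where it called 5.5% of all tested genes lower and 3.45% higher. All structured libraries lay below all smooth libraries for 5 members, the 4 called ones and Mcoln1, as they did for 7.03% of all tested genes. They lay above for 1 member, Atp6v1f, as for 5.19% of all tested genes.

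Calls are given here per group, each of few genes. In V0, 2 of 9 tested genes fell, with a median log2 fold change of -0.02 over the sector. In V1, none of 9 tested genes was called by edgeR, 1 had an unadjusted p under 0.05, and the median was -0.01. For the 2 accessory genes the median was 0.01, with no call at either threshold. Among the 9 channel, exchanger and partner genes, 2 fell, 7 had negative fold changes and the median was -0.14. Over all tested genes 2.75% were called lower, 7814 of 16006 had negative fold changes and the median was 0.01. The calls of Atp6v0d1 and Clcn7 were lost in several alternative analyses given below. With a trend on GC content and length removed, Atp6v0a1 was the 1 member called. The difference between these groups of genes was not tested.

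**Figure D1:**
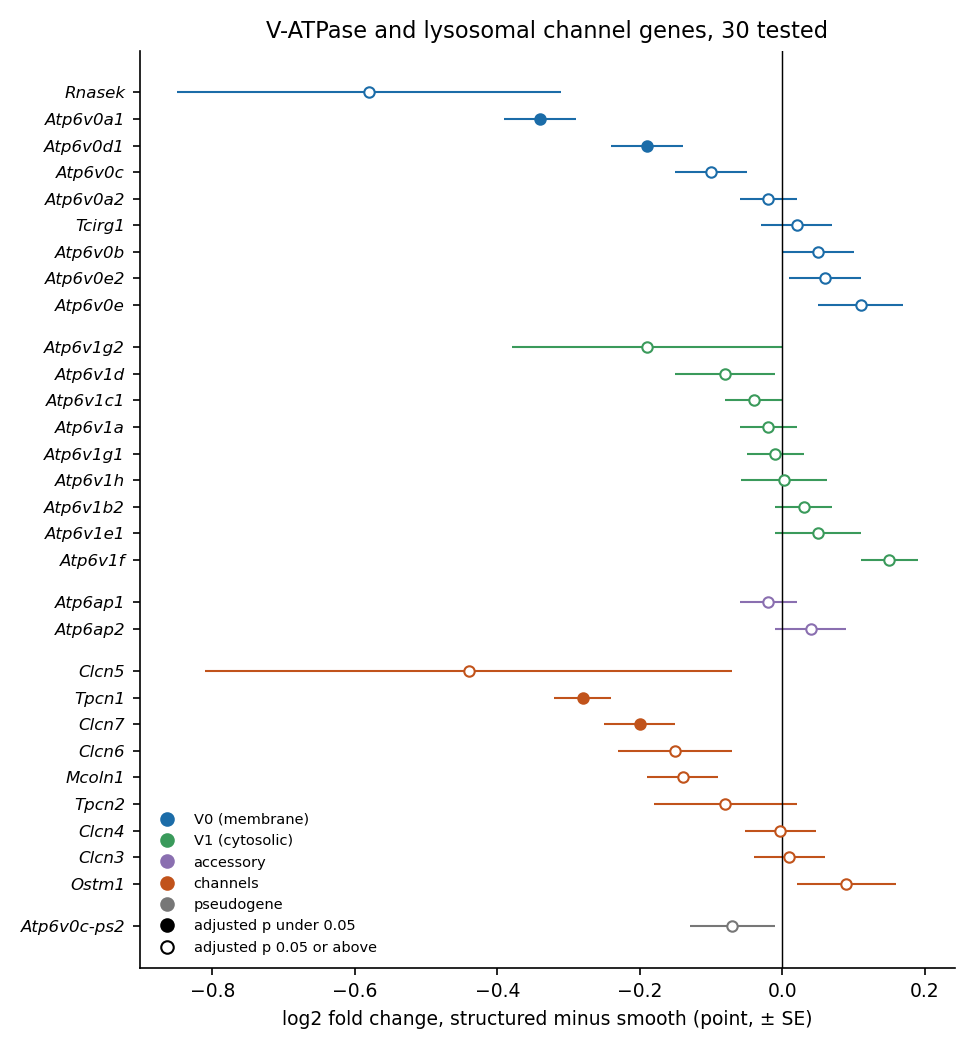
Log2 fold change (x axis, structured minus smooth, point with SE) of the 30 tested members, one row per gene, grouped by role and coloured by role. Filled points are the 4 members with an adjusted p under 0.05, and all 4 lie left of 0.

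Levels were compared between genes as FPKM, which divides by gene length. The proteolipid gene Atp6v0b led the V0 sector, with 91.5 ± 3.78 FPKM in structured libraries and 88.4 ± 5.37 FPKM in smooth libraries (SD, n = 4 each). Next came Tcirg1 with 73.5 ± 3.48 FPKM in structured and 72.4 ± 4.94 FPKM in smooth libraries, and Atp6v0c, the main gene of the proton-carrying ring, with 69.0 ± 3.05 and 73.6 ± 3.95 FPKM in structured and smooth libraries. The level of Atp6v0c is uncertain, because its pseudogene Atp6v0c-ps2 may share its reads. Whether Atp6v0b truly exceeds it is therefore not settled. Atp6v0a1 was the least abundant of the V0 members, at 6.11 ± 0.243 FPKM in structured and 7.72 ± 0.397 FPKM in smooth libraries. In V1 the levels ran from Atp6v1g1, a peripheral stalk subunit, at 80.9 ± 0.961 FPKM in structured and 81.1 ± 4.91 FPKM in smooth libraries, to Atp6v1g2, its neuronal counterpart, at 0.566 ± 0.0587 and 0.641 ± 0.0719 FPKM in structured and smooth libraries. Tpcn1 was the most abundant channel gene, at 19.6 ± 1.12 FPKM in structured and 23.8 ± 0.675 FPKM in smooth libraries. The other 8 genes of that group lay between the mean of Clcn5, 1.21 FPKM in structured and 1.63 FPKM in smooth libraries, and that of Clcn7, 8.81 FPKM in structured and 10.1 FPKM in smooth libraries. Some neighbours in these orders, such as Tcirg1 and Atp6v0c or Clcn3 and Clcn4, did not differ beyond their spread. Others were apart on both surfaces, such as Tpcn1 at 18.5 to 21.1 FPKM in structured and 22.9 to 24.4 FPKM in smooth libraries, against Clcn7 at 8.67 to 9.01 FPKM in structured and 9.49 to 10.7 FPKM in smooth libraries.

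**Figure D2:**
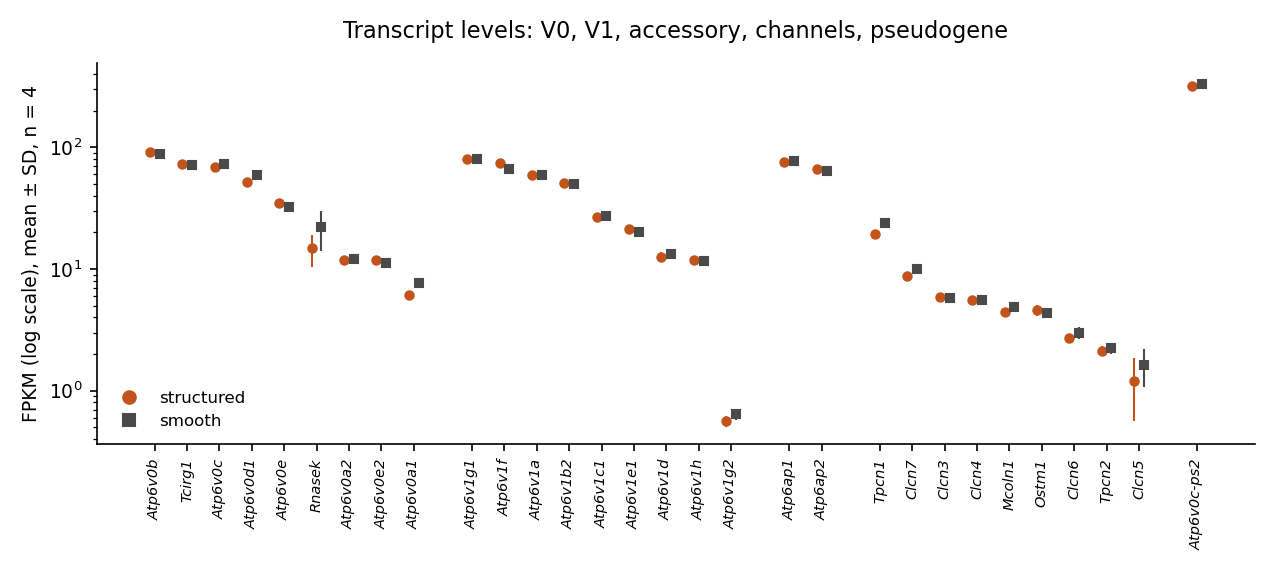
FPKM (y axis, log scale) of the 30 tested members as mean ± SD over 4 structured libraries (circles, left) and 4 smooth libraries (squares, right), grouped as V0, V1, accessory, channel and pseudogene. The members span from Atp6v1g2 near 0.6 FPKM to the pseudogene Atp6v0c-ps2 at 319.5 FPKM in structured and 334.3 FPKM in smooth libraries, and the surfaces lie close together for nearly all of them.

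The a subunit of V0 forms the half-channels through which protons pass and exists in isoforms that steer the pump to different membranes. Atp6v0a1 encodes the a1 isoform, known best from neurons. Its level was 43.6, 44.2, 43.0 and 40.2 CPM in structured libraries 1 to 4, against 52.1, 54.7, 58.3 and 51.7 CPM in smooth libraries 1 to 4. Every structured library was below every smooth one, and the fall was 21.1% (log2 fold change -0.34 ± 0.05 SE, edgeR adjusted p = 0.0110). The gene is at chr11:101009452-101063719 on the plus strand. Its call was kept in all 21 alternative analyses, with adjusted p up to 0.0474.

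The other a isoforms differed little between the surfaces. Tcirg1 encodes the a3 isoform of lysosomes and of the osteoclast ruffled border, whose loss causes osteopetrosis. It had 364.4, 380.5, 361.0 and 336.3 CPM in structured libraries, against 378.5, 349.4, 365.5 and 331.0 CPM in smooth libraries. The groups overlapped throughout, and the log2 fold change was 0.02 ± 0.05, with a 95% interval of -0.09 to 0.13. Atp6v0a2, the a2 isoform found on Golgi and early endosomes, had 81.8 to 89.3 CPM in structured and 83.4 to 91.6 CPM in smooth libraries. Its log2 fold change was -0.02 ± 0.04, with a 95% interval of -0.12 to 0.07. Both intervals exclude a fall of the size seen for Atp6v0a1.

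As a share of the summed FPKM of the 3 a isoforms, Atp6v0a1 made up 6.7, 6.64, 6.7 and 6.68% in structured libraries 1 to 4. In smooth libraries 1 to 4 it made up 7.7, 8.62, 8.72 and 8.52%. The structured values were nearly identical, and the groups did not overlap, with a difference of -1.71 percentage points. Tcirg1 held 79.9, 81.4, 80.3 and 79.7% in structured libraries and 79.8, 78.6, 77.9 and 77.8% in smooth libraries, which overlap. Atp6v0a2 held 13.0 ± 0.745% in structured and 13.1 ± 0.549% in smooth libraries (SD, n = 4 each). The isoform shares of the d, e, G and C subunits overlapped between the surfaces. For the d subunit, Atp6v0d1 held 98.1 ± 0.546% in structured and 98.3 ± 0.245% in smooth libraries, the rest being Atp6v0d2.

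**Figure D3:**
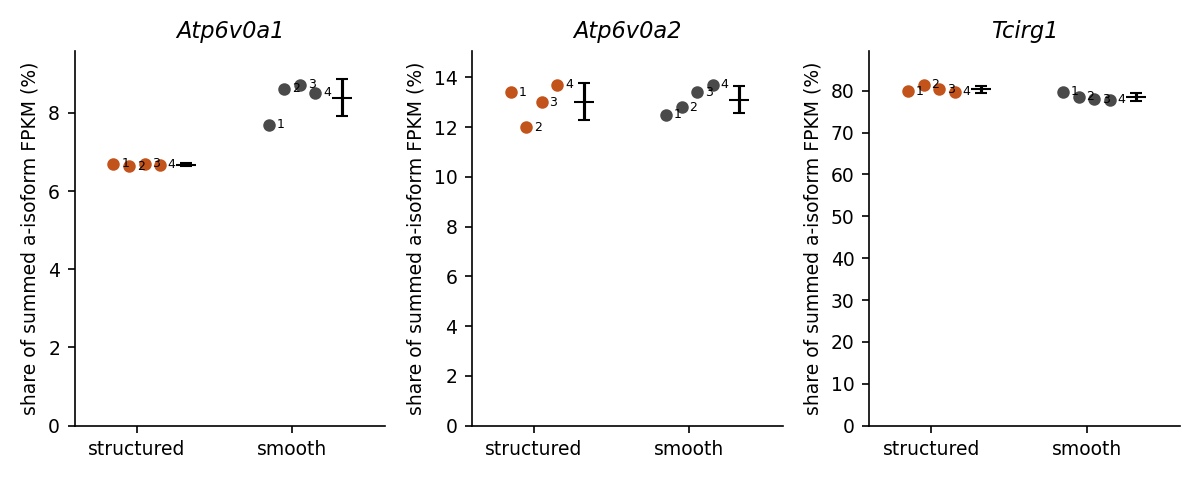
Share of each a isoform in the summed FPKM of the 3 isoforms (y axis, percent, from 0), one point per library with its number, structured left and smooth right, and mean ± SD beside the points. Only the panel of Atp6v0a1 shows groups that do not overlap, from 6.64 to 6.7% in structured and 7.7 to 8.72% in smooth libraries.

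Atp6v0d1 encodes the d subunit, which couples the membrane ring to the central stalk of V1. It had 99.3, 98.1, 103.5 and 97.2 CPM in structured libraries, against 110.8, 118.7, 119.4 and 105.6 CPM in smooth libraries. The highest structured library lay just below the lowest smooth one, and the gene fell by 12.4% (log2 fold change -0.19 ± 0.05, edgeR adjusted p = 0.0461). The gene is at chr8:105524465-105566047 on the minus strand. The call was kept without structured 3 or smooth 4 only, and without any other single library the adjusted p reached up to 0.134. With the trend on GC content and length removed the log2 fold change was -0.22 at an adjusted p of 0.0878, and with the hepatocyte level as a covariate the adjusted p was 0.107. The isoform Atp6v0d2, which rises in osteoclast differentiation and lies outside the member rule, had 2.09, 4.04, 2.90 and 2.54 CPM in structured libraries and 3.11, 3.70, 2.62 and 2.80 CPM in smooth libraries. Its log2 fold change was -0.08 ± 0.21 (edgeR adjusted p = 0.901).

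The promoter windows of the called V0 genes are shown because only that of Atp6v0d1 holds a motif of lysosomal genes. The E-box CACGTG is the core of the CLEAR element, which the factors TFEB and TFE3 bind in many lysosomal promoters. The RefSeq windows (GRCm38.p6) printed here run from 120 bases before to 20 after the annotated start, and capitals mark CACGTG. That of Atp6v0d1 is chr8:105566045-105566184 on the minus strand and holds the motif with its first base at -3. That of Atp6v0a1, chr11:101010278-101010417 on the plus strand, belongs to a RefSeq start inside the gene interval given above, and holds no CACGTG. The start of that interval lies outside the window and was not searched.
Atp6v0d1: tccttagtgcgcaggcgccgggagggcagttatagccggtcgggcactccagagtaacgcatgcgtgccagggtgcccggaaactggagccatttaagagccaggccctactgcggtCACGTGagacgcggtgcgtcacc
Atp6v0a1: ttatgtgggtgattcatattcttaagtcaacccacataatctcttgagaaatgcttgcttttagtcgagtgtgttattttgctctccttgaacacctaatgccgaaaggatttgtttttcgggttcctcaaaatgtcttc

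The remaining V0 genes were not called by edgeR. Atp6v0b had 192.7, 213.1, 200.7 and 193.5 CPM in structured libraries and 205.8, 193.9, 192.5 and 183.1 CPM in smooth libraries. Its log2 fold change was 0.05 ± 0.05, and the groups overlapped. Atp6v0c had 242.3, 265.2, 250.8 and 237.0 CPM in structured libraries and 258.0, 284.1, 272.8 and 251.1 CPM in smooth libraries, again overlapping (-0.10 ± 0.05, edgeR adjusted p = 0.311). Its counts are uncertain, because its pseudogene Atp6v0c-ps2, with which it may share reads, was assigned the highest FPKM of any member, 319.5 ± 19.8 in structured and 334.3 ± 20.6 in smooth libraries (SD, n = 4 each). Counted together, the gene and the pseudogene gave a log2 fold change of -0.09 ± 0.05 (edgeR adjusted p = 0.393). The small e subunit genes Atp6v0e and Atp6v0e2 had log2 fold changes of 0.11 ± 0.06 and 0.06 ± 0.05.

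Rnasek encodes a small membrane protein, named as a ribonuclease, that is the f subunit of V0. It had the most negative fold change of any tested member and was not called (log2 fold change -0.58 ± 0.27, edgeR adjusted p = 0.267). Its level was 13.5, 8.68, 18.2 and 15.6 CPM in structured libraries, against 18.8, 11.6, 23.8 and 29.6 CPM in smooth libraries. The libraries of a surface differed by a factor of over 2, and the groups overlapped. The reads of this gene are ambiguous: in GENCODE M21, 599 of its 885 exon bases (67.7%) are also exon of Gm21988 on the same strand. Gm21988 had 47.0, 57.6, 43.3 and 44.3 CPM in structured libraries and 49.0, 65.7, 52.5 and 43.7 CPM in smooth libraries. Library 2 of each surface was its highest and the lowest for Rnasek.

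Counted together, Rnasek and Gm21988 gave 60.5, 66.3, 61.6 and 59.9 CPM in structured libraries, against 67.8, 77.3, 76.3 and 73.3 CPM in smooth libraries. The spread within a surface was smaller than for Rnasek alone, and the groups did not overlap. The sum fell, with a log2 fold change of -0.25 ± 0.05 (edgeR adjusted p = 0.0307, in a fit over all genes with this pair merged, a step chosen after seeing the data). The sum was fitted in the main setting only, so whether its call is kept in the alternative analyses was not tested. How much of the fall belongs to either gene cannot be told from the deposited counts.

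**Figure D4:**
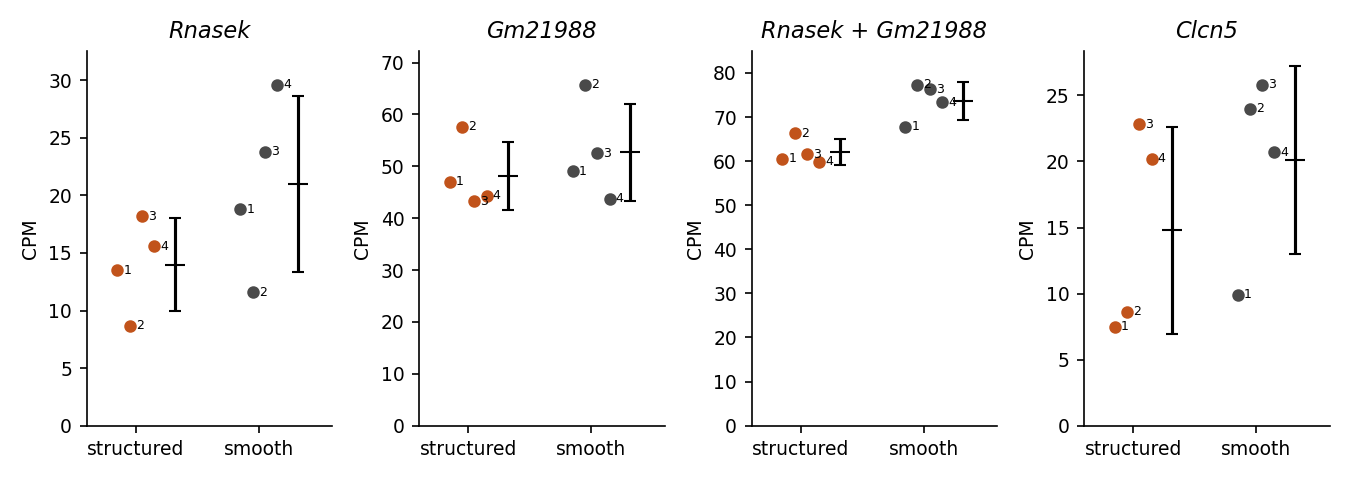
CPM per library (y axis, from 0, points numbered by library, structured left and smooth right, mean ± SD beside them) of Rnasek, Gm21988, their sum, and Clcn5. The sum separates the surfaces, at 59.9 to 66.3 CPM in structured and 67.8 to 77.3 CPM in smooth libraries, while each gene alone overlaps.

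In V1, which holds the catalytic head and the stalks, none of the 9 tested genes was called by edgeR. The catalytic A subunit gene Atp6v1a had 371.5, 402.6, 363.4 and 382.9 CPM in structured libraries and 378.7, 385.8, 396.2 and 384.8 CPM in smooth libraries. Its log2 fold change was -0.02 ± 0.04, with a 95% interval of -0.11 to 0.06. Atp6v1b2, the B subunit of the head, had 275.7, 309.4, 288.5 and 289.0 CPM in structured libraries and 276.3, 293.8, 295.9 and 275.7 CPM in smooth libraries (0.03 ± 0.04, interval -0.07 to 0.12). Atp6v1h, the H subunit that keeps free V1 from hydrolysing ATP, had 118.0, 129.3, 120.4 and 123.3 CPM in structured libraries and 110.8, 121.1, 122.6 and 135.7 CPM in smooth libraries (0.0024 ± 0.06, interval -0.12 to 0.13). These 3 genes overlapped fully between the surfaces. Atp6v1g1 had 96.4, 99.7, 98.7 and 96.8 CPM in structured libraries and 101.9, 103.0, 92.0 and 96.6 CPM in smooth libraries (-0.01 ± 0.04).

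Atp6v1f, a subunit of the rotating central stalk, was the V1 gene with the clearest separation. It had 82.2, 86.9, 80.9 and 87.7 CPM in structured libraries, against 76.8, 77.8, 72.4 and 77.2 CPM in smooth libraries. Each structured value lay above each smooth value, and the log2 fold change was 0.15 ± 0.04. The edgeR adjusted p was 0.0797 and the DESeq2 adjusted p was 0.0185, and it was 0.0695 to 0.212 in edgeR without any single library. Atp6v1d, the other central stalk subunit, had a log2 fold change of -0.08 ± 0.07, and Atp6v1c1, Atp6v1e1 and Atp6v1g2 had -0.04 ± 0.04, 0.05 ± 0.06 and -0.19 ± 0.19.

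Summed over the sector, V0 transcripts came to 365.7 ± 9.37 FPKM in structured and 379.2 ± 11.8 FPKM in smooth libraries, and V1 transcripts to 338.7 ± 9.4 FPKM in structured and 331.4 ± 5.55 FPKM in smooth libraries (SD, n = 4 each). Both sums overlapped between the surfaces. That of V0 leaves out the pseudogene Atp6v0c-ps2, which may hold reads of Atp6v0c. The accessory gene Atp6ap1, whose protein helps assemble V0, had 240.9, 248.4, 256.4 and 237.3 CPM in structured libraries and 253.7, 244.8, 254.4 and 244.0 CPM in smooth libraries (-0.02 ± 0.04, interval -0.10 to 0.06). Atp6ap2, the prorenin receptor, had 178.6, 182.6, 181.6 and 200.4 CPM in structured libraries and 171.0, 182.4, 177.6 and 189.5 CPM in smooth libraries (0.04 ± 0.05, interval -0.06 to 0.15). Neither gene separated the surfaces.

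The 3 members left out of the test were all close to 0. Atp6v1c2 had 0 to 6 count units in structured and 0 to 3 in smooth libraries. Atp6v1fnb, a neighbour of Atp6v1f that is no pump subunit, had 6 units in structured 1 and 0 elsewhere. The pseudogene Atp6v0c-ps1 had 0 to 3 units in libraries of either surface. All lay under 12 units, the floor taken here for a library.

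Tpcn1 encodes two-pore channel TPC1 of endosomes and lysosomes, which passes sodium and calcium in response to a phosphoinositide lipid and to NAADP. It had 170.5, 180.4, 189.4 and 166.7 CPM in structured libraries, against 214.7, 214.0, 222.6 and 209.0 CPM in smooth libraries. The highest structured library stayed well below the lowest smooth one, and the gene fell by 17.8% (log2 fold change -0.28 ± 0.04, edgeR adjusted p = 0.0122). The gene is at chr5:120534153-120588673 on the minus strand. The call was kept without any single library, and of the 21 alternatives it was lost only with the GC and length trend removed, where the log2 fold change was -0.19 (edgeR adjusted p = 0.0742). The GC content of its longest transcript was 56.4%, above the upper quartile of tested genes, 54.2%. Its relative Tpcn2, encoding TPC2 of late endosomes and lysosomes, had 13.1, 11.2, 12.7 and 11.1 CPM in structured libraries and 11.0, 12.2, 14.4 and 13.1 CPM in smooth libraries. These overlapped, with a log2 fold change of -0.08 ± 0.10 and a 95% interval of -0.30 to 0.15 that includes the change of Tpcn1.

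Clcn7 encodes the lysosomal chloride and proton exchanger ClC-7, and Ostm1 the partner protein that stabilises it. Loss of either causes osteopetrosis. Clcn7 had 48.9, 49.4, 50.7 and 49.8 CPM in structured libraries, against 59.2, 53.9, 59.6 and 55.6 CPM in smooth libraries. The structured values were tight and lay below all smooth values, and the gene fell by 12.9% (log2 fold change -0.20 ± 0.05, edgeR adjusted p = 0.0402). The gene is at chr17:25133391-25162104 on the plus strand. Leaving out any single library except smooth 2 ended the call, with adjusted p up to 0.113. It was also lost with the GC and length trend removed, at a log2 fold change of -0.14 and an adjusted p of 0.169, and with the hepatocyte covariate, at an adjusted p of 0.0663. Ostm1 had 34.3, 33.7, 40.9 and 33.2 CPM in structured libraries and 33.9, 33.5, 32.7 and 33.6 CPM in smooth libraries. Apart from structured 3 the libraries were alike, and the log2 fold change was 0.09 ± 0.07 (edgeR adjusted p = 0.548).

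With the GC and length trend removed, 0.569% of all tested genes were called lower and 0.387% higher, and Atp6v0a1 was the 1 member called, with a log2 fold change of -0.33 (edgeR adjusted p = 0.0263). The GC content of its longest transcript was 47.0%, near the median of tested genes, 49.5%. That of Atp6v0d1 was 53.4% and that of Clcn7 was 54.5%. Whether GC content or length bears on which calls were lost was not tested.

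**Figure D5:**
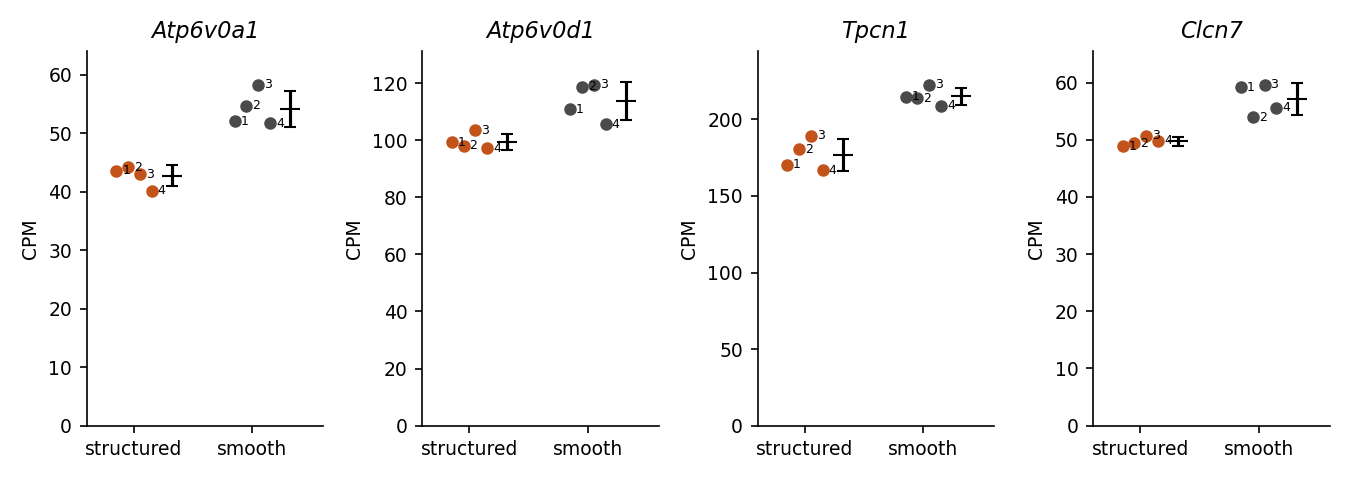
CPM per library (y axis, from 0, points numbered by library) of the 4 members that fell, structured left and smooth right in each panel, with mean ± SD beside the points. In each panel the 4 structured libraries lie below the 4 smooth libraries, with the widest relative gap for Atp6v0a1 and Tpcn1.

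Mcoln1 encodes TRPML1, the lysosomal calcium release channel. It had 34.8, 37.1, 34.2 and 37.5 CPM in structured libraries, against 38.7, 39.0, 41.0 and 39.3 CPM in smooth libraries. The groups did not overlap, but the log2 fold change of -0.14 ± 0.05 was not called (edgeR adjusted p = 0.147, and 0.112 to 0.308 over the alternatives). The endosomal exchanger gene Clcn3 had 114.3, 104.0, 104.9 and 103.5 CPM in structured libraries and 112.2, 99.2, 109.1 and 103.9 CPM in smooth libraries (0.01 ± 0.05). Clcn4 and Clcn6, exchangers of endosomes, had log2 fold changes of -0.0026 ± 0.05 and -0.15 ± 0.08.

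Clcn5, an endosomal exchanger known from kidney, varied widely between libraries of a surface. It had 7.50, 8.63, 22.8 and 20.2 CPM in structured libraries and 9.91, 24.0, 25.8 and 20.7 CPM in smooth libraries. The low values came from structured 1 and 2 and smooth 1, so the libraries fell into low and high ones on either surface, and the log2 fold change of -0.44 ± 0.37 was not called (edgeR adjusted p = 0.596). The coefficient of variation was 53.1% in structured and 35.4% in smooth libraries, beside 28.9% in structured and 36.4% in smooth libraries for Rnasek.

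Summed over the 9 genes, the channel group came to 54.09, 54.52, 57.64 and 53.81 FPKM in structured libraries, against 62.5, 59.92, 63.5 and 59.47 FPKM in smooth libraries. The groups did not overlap, with a log2 ratio of -0.16. Without Tpcn1, its most abundant gene, the sum was 35.1, 34.7, 36.6 and 35.3 FPKM in structured libraries and 38.3, 36.4, 39.1 and 36.6 FPKM in smooth libraries. The groups then overlapped and the log2 ratio was -0.09.

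The promoters of Clcn7 and Mcoln1 are shown because each holds the CACGTG motif at 2 positions. Atp6v0b, with a log2 fold change of 0.05, and Clcn6, with one of -0.15, also hold it at 2 positions and are not printed. The RefSeq window (GRCm38.p6) of Clcn7 is chr17:25133271-25133410 on the plus strand, with first bases of the motif at -15 and 8. That of Mcoln1 is chr8:3500399-3500538 on the plus strand, with first bases at -71 and -45. That of Atp6v0e, a member with a positive fold change, is chr17:26676276-26676415 on the plus strand, with a first base at 4. It belongs to a RefSeq start inside the deposited gene interval, chr17:26663231-26699647, whose own start was not searched. Capitals mark CACGTG.
Clcn7: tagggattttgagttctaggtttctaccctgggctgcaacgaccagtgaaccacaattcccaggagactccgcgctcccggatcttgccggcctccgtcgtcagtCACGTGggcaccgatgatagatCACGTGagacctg
Mcoln1: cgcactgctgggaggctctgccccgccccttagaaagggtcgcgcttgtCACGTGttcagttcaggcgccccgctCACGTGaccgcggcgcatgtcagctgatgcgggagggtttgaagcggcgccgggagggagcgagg
Atp6v0e: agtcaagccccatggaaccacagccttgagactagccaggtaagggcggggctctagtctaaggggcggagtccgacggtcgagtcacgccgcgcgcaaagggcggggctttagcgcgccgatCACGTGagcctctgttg

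RefSeq promoter windows, from 250 bases before to 50 after the start, were matched for 24 of the 33 members. For some, such as Atp6v0a1, Atp6v0e and Ostm1, the window lies inside the deposited gene interval, and the start of that interval was not searched. CACGTG, which reads the same on both strands, was present for 8 of these 24 (33.3%), against 8.09% of the 27025 genes in the same table. The longer TCACGTG, searched on both strands and always overlapping CACGTG, was present for the same 8 members, against 4.29% of all genes. Counted by window, 8 of 33 member windows (24.2%) held CACGTG, against 7.15% of 32851 windows. The 8 members were Atp6v0b, Atp6v0d1, Atp6v0e, Atp6v1a, Clcn4, Clcn6, Clcn7 and Mcoln1. Of these, 6 had negative and 2 positive fold changes, with a median of -0.08 on the log2 scale. The negative ones include Clcn4 at only -0.0026 and Atp6v1a at -0.02. The 14 tested members with a window and no CACGTG had 7 negative and 7 positive fold changes, with a median of -0.01. Of all 16006 tested genes, 7814 had negative fold changes. The difference between members with and without the motif was not tested. The presence of these letters does not show that a factor binds there.

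Genes that act on the pump from outside it were read in the same fit. Of 17 listed assembly factors and regulators, 16 were in the table and 15 tested, and 1 fell, with a median log2 fold change of -0.02. Among all tested genes 2.75% were called lower, and 7.03% had every structured library below every smooth one. The gene that fell was Wdr7, a gene of the rabconnectins, which help V1 bind V0. It had 38.6, 37.1, 35.9 and 34.6 CPM in structured libraries, against 41.5, 44.4, 44.4 and 41.8 CPM in smooth libraries, with a log2 fold change of -0.24 ± 0.05 (edgeR adjusted p = 0.0312). The groups did not overlap. The rabconnectin genes Dmxl1 and Dmxl2 of the same list had log2 fold changes of 0.07 ± 0.05 and 0.05 ± 0.07, neither called in the main fit. With the GC and length trend removed, Dmxl1 was called higher (0.17, edgeR adjusted p = 0.0465). The most abundant gene of the list, the assembly factor Ccdc115, had 31.9 ± 1.93 FPKM in structured and 30.7 ± 1.54 FPKM in smooth libraries (log2 fold change 0.05 ± 0.05).

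Of 23 other lysosomal ion channel and transporter genes, 21 were tested and 1 fell, beside 2.75% of all tested genes. The median log2 fold change of the list was -0.06. Slc11a1, the Nramp metal transporter of macrophage phagosomes, had 120.6, 125.8, 138.4 and 124.7 CPM in structured libraries, against 140.4, 156.0, 161.8 and 146.5 CPM in smooth libraries. It fell by 15.7%, with no overlap (log2 fold change -0.25 ± 0.05, edgeR adjusted p = 0.0334). Clic4, the most abundant gene of this list, had 54.2 ± 3.83 FPKM in structured and 61.1 FPKM in smooth libraries (log2 fold change -0.18 ± 0.05, edgeR adjusted p = 0.0656). Of the 8 fits that left out a library, the call of Wdr7 was kept in 2 (without structured 1 or smooth 1), and that of Slc11a1 also in 2 (without structured 3 or smooth 1). Both were lost with the GC and length trend removed, at edgeR adjusted p of 0.114 for Wdr7 and 0.139 for Slc11a1. Both were also lost with the hepatocyte covariate, at edgeR adjusted p of 0.109 for Wdr7 and 0.0995 for Slc11a1. With the replicate number as a block, Wdr7 was lost (edgeR adjusted p = 0.0512) and Slc11a1 was kept (edgeR adjusted p = 0.0182).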

How the data were processed

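Per the labels' protocols, mRNA was selected on oligo(dT), strand was kept by dUTP marking, molecular identifiers were added with the adapters, and reads were pairs of 150 bases. Per the submitters' processing notes, cutadapt 1.9 and HISAT2 2.2.1 were used. Not given in the sources used here are the build, the annotation, the counter, and any use of strand or molecular identifiers in counting. Coordinates are those of the deposited table, and 30 of 33 members have the same ones in GENCODE M21.

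The authors deposited whole-number estimated counts and FPKM per gene. Low counts pile up at multiples of 4 (8018 values of 4, against 3344 of 3 and 2180 of 5), so a unit need not be 1 read pair, and the floor of 12 units per library stands for 3 such steps. It covers counting error only.

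Counts were tested with edgeR 4.0.16 (R 4.3.3, filterByExpr with a minimum count of 10, TMM, quasi-likelihood F test, all 8 libraries, no covariate, Benjamini-Hochberg at 0.05) after a check on simulated counts. limma 3.58.1 and DESeq2 1.42.0 were alternatives, as were other scalings and filters, the replicate block, each library left out, removal of a spline trend on GC content and length (known for 99.9% of tested genes), and the summed hepatocyte markers as a covariate. Sums of genes with shared reads, and the channel sum without Tpcn1, were added after seeing the data. The sums of genes with shared reads were tested in the main setting only. FPKM served for levels between genes, isoform shares and sums. The members and lists were chosen with earlier results of these data known. Values per library are given for called members, the 3 most abundant of each role, and 13 chosen members. Promoters are from RefSeq (GRCm38.p6). Members without an entry are Tpcn1, Atp6v0a2, Atp6v1b2, Atp6v1c1, Atp6v1g1, Atp6v1h, Rnasek and the pseudogenes. The result of 1 gene of the related lists is not reported here.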

Additional observations from a re-analysis of the deposited data

Results flagged for a closer look

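In 60 groups of 4 libraries (30 tested members on 2 surfaces), the library farthest from the others was compared with the spread of its group by Dixon's ratio, which marks about 1 group in 20 by chance. It marked 3 groups, all structured. Clcn3 had 114.3 CPM in structured 1, a gap of 0.87 of the group's range. Atp6v0e had 151.8 CPM in structured 2, a gap of 0.839 of the range. Ostm1 had 40.9 CPM in structured 3, a gap of 0.855 of the range. Each came from another library, and none of these genes was called by edgeR.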

How the results depend on the processing

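The fold changes of Atp6v0a1, Atp6v0d1, Tpcn1 and Clcn7 were negative in all 21 alternatives. The count of 4 lower members became 2 (Atp6v0a1 and Tpcn1) with no filter on low counts, with limma on log2(FPKM + 0.5), + 0.1 or + 1, and with the hepatocyte covariate, became 1 (Atp6v0a1) without the GC and length trend, and was 2 to 3 without any single library. The count of higher members was 1 (Atp6v1f) with DESeq2. Over all tested genes, lower calls numbered 440 and became 142 with no filter, 880 with DESeq2, 124, 153 and 122 with limma on log2(FPKM + 0.5), + 0.1 and + 1, 91 without the GC and length trend, 163 with the hepatocyte covariate and 67 to 427 without any single library (67 without structured 4). Higher calls numbered 161 and became 47, 553, 67, 89, 65, 62 and 103 in the same order, and 21 to 170 without any single library. The cause was not tested. The median log2 fold change of the channel group, -0.14, was -0.10 with limma on log2(FPKM + 1), -0.09 without the GC and length trend, and -0.15 to -0.10 without any single library. That of the accessory genes became -0.04 without the GC and length trend, and that of V1 was -0.03 to 0.00055 without any single library.

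Reversals of sign were limited to genes with log2 fold changes close to 0, at sizes up to 0.04, in 18 of 611 comparisons of 29 genes. They included Clcn3 at -0.0043 and Tpcn2 at 0.03 with the hepatocyte covariate, Atp6ap2 at -0.02 and Atp6v0a2 at 0.01 without the GC and length trend. Clcn4 also changed sign, at 0.02 without the GC and length trend and 0.00042 with DESeq2. So did Atp6v1c1, at 0.00041 with the hepatocyte covariate. Leaving out single libraries gave ranges of -0.02 to 0.05 for Tcirg1, -0.03 to 0.04 for Clcn3, -0.01 to 0.05 for Atp6v1b2, -0.04 to 0.05 for Atp6v1h, -0.05 to 0.0028 for Atp6v0a2 and -0.04 to 0.02 for Atp6v1g1.

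With the replicate number as a block, 4 members were lower (Atp6v0a1, Atp6v0d1, Tpcn1 and Rnasek, the last at an adjusted p of 0.0350), Clcn7 reached 0.0583, and 374 genes were lower and 125 higher. Same-numbered libraries share only a number: their deviations correlated at -0.198 to 0.136.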
